A study of Rattus norvegicus with 4 samples.

Results

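Natural killer (NK) cells, here cells with RNA of cytotoxic genes and little or no CD3 RNA, were examined in single-cell RNA-seq of rat blood. They were chosen by their own UMIs, the unique molecular identifiers that stand for 1 RNA molecule each, so the genes of the rule are a description here and not a finding. A barcode, the tag shared by the RNA of 1 droplet, was kept when it had 500 UMIs and 200 genes or more and no more than 20% mitochondrial UMIs. It was counted as an NK barcode with at least 3 UMIs summed over the cytotoxic genes Nkg7, Gzma, Klrd1 and Prf1, at most 1 UMI of Cd3e, Cd3d and Cd3g together, no UMI of Csf1r, Cd79b or Ms4a1, and hemoglobin under 40% of its UMIs. This gave 800 NK barcodes among 45986 kept barcodes: 218 from Sham, 141 from SCI, 162 from MSC-i.t, and 279 from MSC-i.v.

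The study set a sham group against rats with spinal cord injury (SCI) made by Allen's weight-drop method, untreated or given umbilical cord mesenchymal stromal cells (MSC). Cells were given intrathecally at 10000000 cells/kg (MSC-i.t) or intravenously at 30000000 cells/kg (MSC-i.v), each 2 times, at 72 hours and at 7 days from the injury. The study had 40 rats, 10 in each group, and 1 library of blood was analysed per group. Neither strain, age, the time of the blood draw, the number of rats behind a library nor a control injection for the SCI group is given in the labels, and the design text can be read as injury in all 40 rats before they were assigned, sham included. The deposited data sets are named with a time, and the SCI name differs in it from the rest, so the group and any difference in the time of sampling cannot be told apart.

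NK cells are innate lymphocytes that kill infected, stressed or transformed cells with perforin and granzymes and release chemokines. Their activity is set by a balance of activating and inhibitory receptors; the activating ones signal through small adaptors such as Tyrobp and Fcer1g. In the rat, Klrb1a (NKR-P1A, CD161a) is the classical surface marker of these cells, inhibitory and activating Ly49 receptors take the place that killer immunoglobulin-like receptors have in humans, and blood NK cells commonly carry Cd8a without Cd4 or CD3. NK cells enter the cell cycle on cytokine stimulation.

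The libraries held 63133881 to 91124523 UMIs. NK barcodes had medians of 4327, 4887, 4581.5 and 3181 UMIs (Sham, then SCI, MSC-i.t, MSC-i.v, the order used throughout) and summed to 750712 to 1002616 UMIs per library. Levels (CPM) are the UMIs of a gene summed over the NK barcodes of a library and scaled to 1000000 UMIs of the class. With 1 library per group no difference between groups could be tested. All intervals are exact 95% ones that cover counting error alone, and a ratio sets 1 library against another, not 1 condition against another. Those of gene levels and gene ratios treat UMIs as independent draws and leave out the spread from barcode to barcode. Pairs of libraries shared 25 to 49 kept barcode sequences, against 12.2 to 26.9 if drawn independently, at most 0.580% of the smaller library.

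The values used to choose the cells are given as a description. The median sum of the 4 cytotoxic genes was 27, 35, 32.5 and 20 UMIs, far above the minimum of 3. Only 4, 4, 6 and 5 barcodes sat at 3 or 4 UMIs, and 6, 6, 6 and 14 otherwise eligible barcodes lay just outside at 2 UMIs. At the other limit, 26, 16, 28 and 34 members had 1 CD3 UMI, of which 26, 15, 26 and 31 carried Klrb1a, and 6, 2, 4 and 16 barcodes fell just outside with 2. The bar on Cd79b and Ms4a1 left out 26, 15, 17 and 25 barcodes, of which 58.8% to 76.9% had a UMI of Klrb1a, and the bar on Csf1r left out 13, 1, 3 and 14.

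Genes that the choice did not use gave the barcodes the profile of rat NK cells. Klrb1a was detected in 95.1%, 94.0%, 92.9% and 95.4% of NK barcodes after each barcode was thinned at random to 2000 UMIs (98.2%, 97.9%, 95.1% and 97.5% with all UMIs). At the same depth Klrb1a was detected in 8.00% to 17.5% of CD3-positive cytotoxic barcodes, which met the same rule but had at least 2 CD3 UMIs. It was detected in 0.242% to 1.05% of B cell barcodes, where the source of its UMIs was not tested. B barcodes had unthinned medians of 2663, 3179, 2968 and 2012.5 UMIs. Tyrobp, the adaptor of many activating receptors, was detected in 97.7% to 100% of thinned NK barcodes and in 6.46% to 14.0% of B barcodes. Gzmk, a granzyme of tryptase type, was detected in 94.8% to 97.8% against 0.161% to 0.850%. Ncr1, which encodes the NK receptor NKp46, was detected in 28.4% to 32.4% of thinned NK barcodes (40.1% to 63.8% with all UMIs) and in no more than 1.11% of the CD3-positive cytotoxic barcodes. Tbx21, the transcription factor T-bet, was detected in 35.9% to 41.6% of thinned NK barcodes and in 2.60% to 5.42% of CD3-positive cytotoxic barcodes. Its relative Eomes was detected in 0.490% to 2.60% of thinned NK barcodes, a level close to 1 UMI, so no order of the libraries is read from it.

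**Figure D1:**
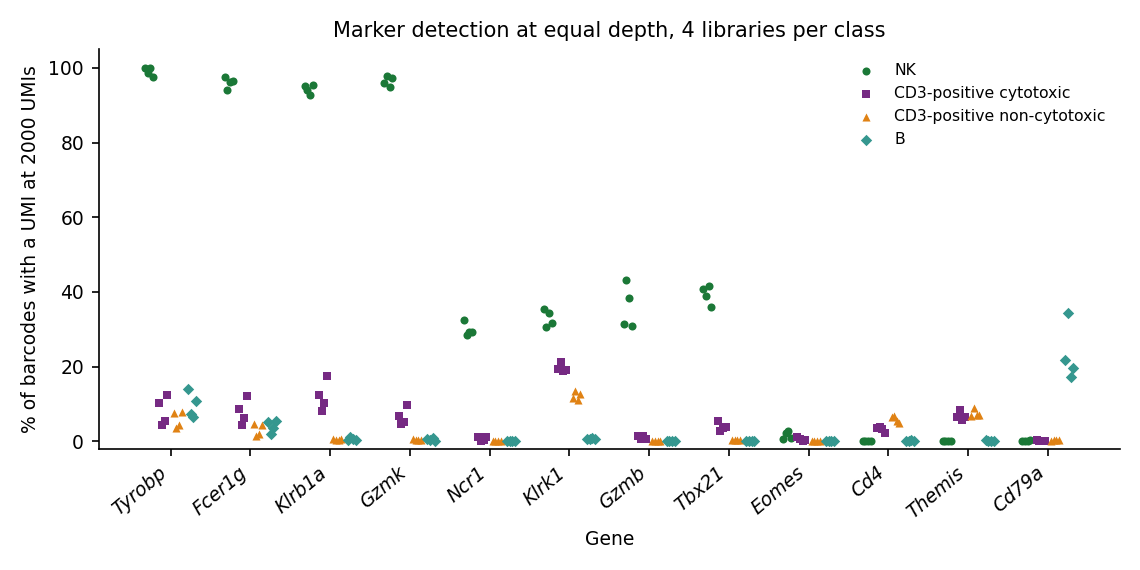
Percent of barcodes with a UMI of each gene after thinning to 2000 UMIs, with 1 point per library for NK (circles), CD3-positive cytotoxic (squares), CD3-positive non-cytotoxic (triangles) and B barcodes (diamonds). Klrb1a lies between 92.9% and 95.4% in NK barcodes and between 8.00% and 17.5% in CD3-positive cytotoxic barcodes, while Themis and Cd4 are at 0 in NK barcodes.

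Markers of other cells were mostly low but not all absent. The 9 NK markers outside the rule summed to 10240, 8983, 9437 and 9602 CPM, against 380 to 715 CPM in CD3-positive cytotoxic barcodes. Barcodes with Csf1r UMIs and none of the CD3, cytotoxic, Cd79b or Ms4a1 genes had 9830, 9885, 10187 and 10677 CPM. The sum thus does not set NK barcodes apart from Csf1r-positive ones. The 11 T cell markers outside the rule summed to 193 to 213 CPM in NK barcodes, against 1067 to 1264 CPM in CD3-positive non-cytotoxic barcodes. Themis, a T cell selection gene, was at 0 UMIs in NK barcodes of all 4 libraries and Cd4 had 1 UMI over all of them. B cell markers summed to 1.20 to 13.5 CPM. Plasmacytoid dendritic markers summed to 102 to 115 CPM, against 15.8 to 23.0 CPM in CD3-positive cytotoxic barcodes and 350 to 427 CPM in B barcodes. Of these markers Irf8 and Runx2 were higher in NK than in CD3-positive cytotoxic barcodes, while Siglech, a defining gene of plasmacytoid dendritic cells, was at 0. Platelet markers summed to 580, 197, 409 and 301 CPM, higher than the 198, 55.3, 161 and 136 CPM of CD3-positive cytotoxic barcodes. B barcodes had 422, 99.9, 256 and 324 CPM of them. Erythroid markers summed to 173, 44.0, 412 and 287 CPM outside the rule's hemoglobin genes, and monocyte markers to 80.3 to 244 CPM. Neutrophil and basophil markers summed to 814 CPM in Sham and to 26.4 to 45.8 CPM in the other 3 libraries, and in CD3-positive cytotoxic barcodes to 1002 CPM in Sham and 7.87 to 36.7 CPM in the others. In Sham, 2 of the 218 barcodes held 706 of the 728 UMIs of Mcpt8, a basophil and mast cell protease, with UMIs of Cpa3, Ms4a2 and Gata2. Neither of them had a UMI of Klrb1a, Gzma or Klrd1, and the ratios that rest on them, those of Mcpt8 and Mcpt1l4, are given without them at the end.

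NK barcodes were a small share of blood barcodes, highest in Sham and lowest in MSC-i.t. Of the barcodes with hemoglobin under 40% of UMIs they made up 2.40% (2.09 to 2.73) in Sham, 1.98% (1.76 to 2.22) in MSC-i.v, 1.93% (1.63 to 2.27) in SCI, and 1.62% (1.38 to 1.89) in MSC-i.t. The counting interval of the ratio of Sham to MSC-i.t, 1.48 (1.20 to 1.82), lay above 1, while that of MSC-i.v to SCI, 1.03 (0.835 to 1.27), held 1. The same order held among lymphocyte barcodes, at 2.74%, 2.07%, 1.74% and 2.25%. These shares depend on which barcodes pass the UMI minimum and on the share of other cells in each library, and the part of either in the differences was not tested.

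Within the cytotoxic lymphocytes the libraries stood further apart. NK barcodes were 21.1% (18.6 to 23.7) of NK and CD3-positive cytotoxic barcodes together in Sham and 29.3% (26.4 to 32.3) in MSC-i.v, but 12.7% (10.8 to 14.8) in SCI and 11.3% (9.67 to 13.0) in MSC-i.t. CD3-positive cytotoxic barcodes numbered 816, 967, 1277 and 674. They had medians of 6247, 7169, 7063 and 4892.5 UMIs, so the library with the highest NK proportion was also the shallowest one. Fewer CD3 UMIs are caught in a shallower barcode, and the part of depth in this proportion was not tested.

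**Figure D2:**
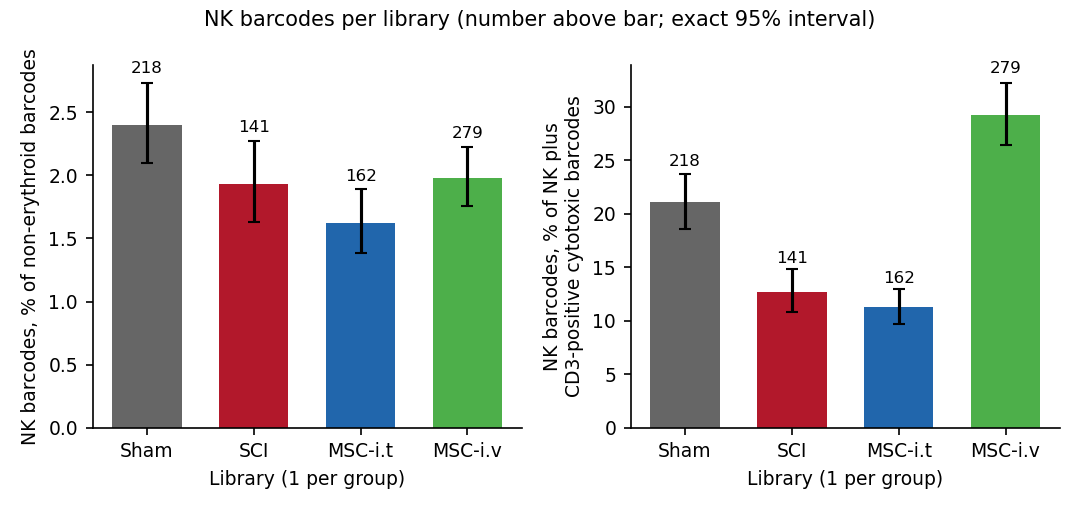
NK barcodes as a percent of barcodes with hemoglobin under 40% (left) and of NK plus CD3-positive cytotoxic barcodes (right), 1 bar per library with the number of NK barcodes above it and exact 95% intervals for counting error. On the left Sham is highest at 2.40% and MSC-i.t lowest at 1.62%; on the right MSC-i.v is highest at 29.3%.

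Set against the CD3-positive cytotoxic barcodes of the same libraries, NK barcodes had far more RNA for NK receptors, adaptors, granule proteases and chemokines, and less for T cell receptor signalling and lymph node homing. Class sums of each library were compared with edgeR's quasi-likelihood test, the libraries being the 4 pairs. Because the classes were separated by CD3 UMIs of the same barcodes, the fitted values and the calls describe that split and do not test it. The counts of higher and lower list members below are such calls, given as a description, and no p is given. At an adjusted p under 0.05 (Benjamini-Hochberg), 36.4% of 7625 genes differed, 19.8% being higher and 16.6% lower in NK barcodes. Fitted log2 values are scaled so that their median over all genes is 0.01, where the plain CPM ratios have a median of 0.36; directions are relative to that scaling, and 166 called genes have the other sign by plain CPM.

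Of 25 receptor genes tested, 21 were higher in NK barcodes and 2, Ncr3 and Klra22, were lower. Ncr1 was at 196, 205, 174 and 158 CPM in NK barcodes and at 5.14, 1.74, 3.03 and 6.83 CPM in CD3-positive cytotoxic barcodes, a fitted log2 difference of 5.26. Klrg1, an inhibitory receptor for cadherins, was at 138, 156, 117 and 113 CPM against 1.31 to 4.47 CPM. Klrk1, the activating receptor NKG2D, was shared far more evenly, at 224, 180, 230 and 200 CPM against 101 to 114 CPM. The receptor genes thus ranged from nearly private to NK barcodes to shared with T cells.

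Among 17 signalling genes, 10 were higher, and Plcg1 and Lat were among the lower ones. Tyrobp was at 4639, 4044, 4155 and 4326 CPM against 69.3 to 194 CPM, and Syk, the kinase that Tyrobp and Fcer1g recruit, at 133, 151, 103 and 123 CPM against 1.34 to 5.49 CPM. Plcg1, the phospholipase of T cell receptor signalling, was at 0, 2.66, 2.40 and 1.04 CPM against 41.3 to 60.8 CPM. The phospholipase Plcg2, which serves the same step in other lymphocytes, was among the higher ones.

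Of 16 granule genes outside the rule, 10 were higher and none was lower. Gzmb, the caspase-activating granzyme, was at 399, 508, 347 and 323 CPM in NK barcodes and at 18.1, 3.74, 10.8 and 14.5 CPM in CD3-positive cytotoxic barcodes. Gzmk was at 3744, 3455, 3469 and 3893 CPM against 75.7 to 170 CPM, so it exceeded Gzmb in UMIs in each library; these levels are not scaled to transcript length. Among 8 cytokine genes, 6 were higher. Ccl5, a chemokine for T cells and monocytes, took 24240, 25606, 24065 and 26537 CPM of NK RNA against 917 to 1557 CPM, and Xcl1, the chemokine of cross-presenting dendritic cells, 406, 386, 416 and 295 CPM against 10.4 to 26.0 CPM.

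The transcription factors and homing genes split into sets of either direction. Of 17 factors, 10 were higher, among them Prdm1, Zeb2, Tbx21 and Id2, which mark effector lymphocytes, and 6 were lower, among them Tcf7 and Bach2, which mark naive and memory ones. Of 24 genes of maturation, homing and cytokine response, 13 were higher and 8 lower. S1pr5, the receptor that lets NK cells leave bone marrow and lymph nodes, was at 57.8, 81.3, 40.7 and 61.4 CPM against 1.59 to 5.26 CPM. Ccr7, the lymph node homing receptor, had 1 UMI in all NK barcodes and 10.5 to 15.1 CPM in the CD3-positive class. Outside the lists, the 10 genes with the largest differences upward held Kcnk1, a potassium channel, at 46.6 to 61.1 CPM against 0.177 to 1.31 CPM, Kif5a, a kinesin motor, and Cd24, a surface glycoprotein. Mcpt8 also ranked there through the 2 basophil-gene barcodes of Sham, but in the other 3 libraries it was still at 21.6 to 28.0 CPM against 1.11 to 2.27 CPM. In the other direction, Themis had 0 UMIs in 3548560 NK UMIs and 901 in 26846566, at least 39.7-fold lower at a floor of 3 UMIs over the class.

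RNA of the Ly49 receptor entries that could be counted was found in a minority of NK barcodes, and often of several entries in 1 barcode. Of 15 Ly49 and Klra gene entries, none was detected in 70.6%, 71.6%, 68.8% and 73.0% of NK barcodes thinned to 2000 UMIs, against 81.9% to 89.6% of CD3-positive cytotoxic barcodes. With all UMIs, none was detected in 62.4%, 66.7%, 61.1% and 67.4% of NK barcodes. A single entry was found in 10.4% to 16.9% of thinned NK barcodes, and 3 or more in 8.82%, 8.96%, 5.84% and 6.95%. The summed level was 533, 422, 436 and 432 CPM, highest in Sham. Ly49 genes are near-identical copies of each other, and reads that fit several copies may be lost or split, so how UMIs divide among them is uncertain. Ly49i7, Ly49si2, Ly49si3 and some Klra5 entries had no UMI in NK barcodes of any library. Other Ly49 symbols, such as Ly49s3 and Ly49i3, had no entry. The share of NK barcodes without Ly49 RNA is therefore uncertain too.

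SCI against Sham asks how the untreated injured group and the sham group differ. Genes of NK identity were at similar levels in both libraries, while genes of DNA replication were higher in SCI. The log2 ratio over all genes with at least 10 UMIs had a median of 0.12, and single ratios are read against it. Of 5099 genes with at least 30 UMIs, 7.73% differed at least 2-fold, 6.16% being higher in SCI and 1.57% lower. Of the differing genes 79.7% were higher in SCI, but 56.7% were once the ratio in CD3-positive non-cytotoxic barcodes was subtracted, and 68.5% at equal depth.

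NK receptors had a median log2 ratio of -0.12 over 25 members, signalling genes -0.02 over 16, granule genes -0.12 over 17, transcription factors 0.11 over 18, and maturation and homing genes 0.17 over 24. In these 5 lists, 83 members had at least 30 UMIs and 2 passed 2-fold, Ly49i2 lower and Runx3 higher. Summed over the list, receptor RNA was at 5102, 4608, 4751 and 4553 CPM, and granule RNA at 12341, 11517, 10918 and 11615 CPM. Ly49i2, an inhibitory Ly49 receptor, was at 122, 59.9, 45.5 and 69.7 CPM, highest in Sham, where 32 barcodes carried it. Runx3, a factor of cytotoxic lymphocytes, was at 85.8, 182, 95.9 and 103 CPM, with a log2 ratio of 1.09 in NK barcodes and 1.07 in CD3-positive non-cytotoxic barcodes.

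Gzmb was at 399 CPM in Sham, where 67 of its 400 UMIs came from 1 barcode, and at 508 CPM in SCI. Faslg, the death ligand of lymphocytes, was at 87.8, 137, 132 and 139 CPM, lowest in Sham. Srgn, the proteoglycan that packs granule proteases, was at 817, 582, 603 and 626 CPM, highest in Sham, where 158 of its 819 UMIs came from 1 barcode. Fyn, a kinase upstream of several NK receptors, was at 232, 408, 228 and 220 CPM, with log2 ratios of SCI to Sham of 0.81 in NK barcodes and 0.85 in CD3-positive non-cytotoxic barcodes. Among the chemokines, Ccl5 differed by a log2 ratio of 0.08 and Xcl1 by -0.07. Tgfb1, an inhibitory cytokine, was at 73.8, 180, 49.1 and 71.8 CPM, highest in SCI, with log2 ratios of 1.28 in NK and 0.87 in CD3-positive non-cytotoxic barcodes.

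**Figure D3:**
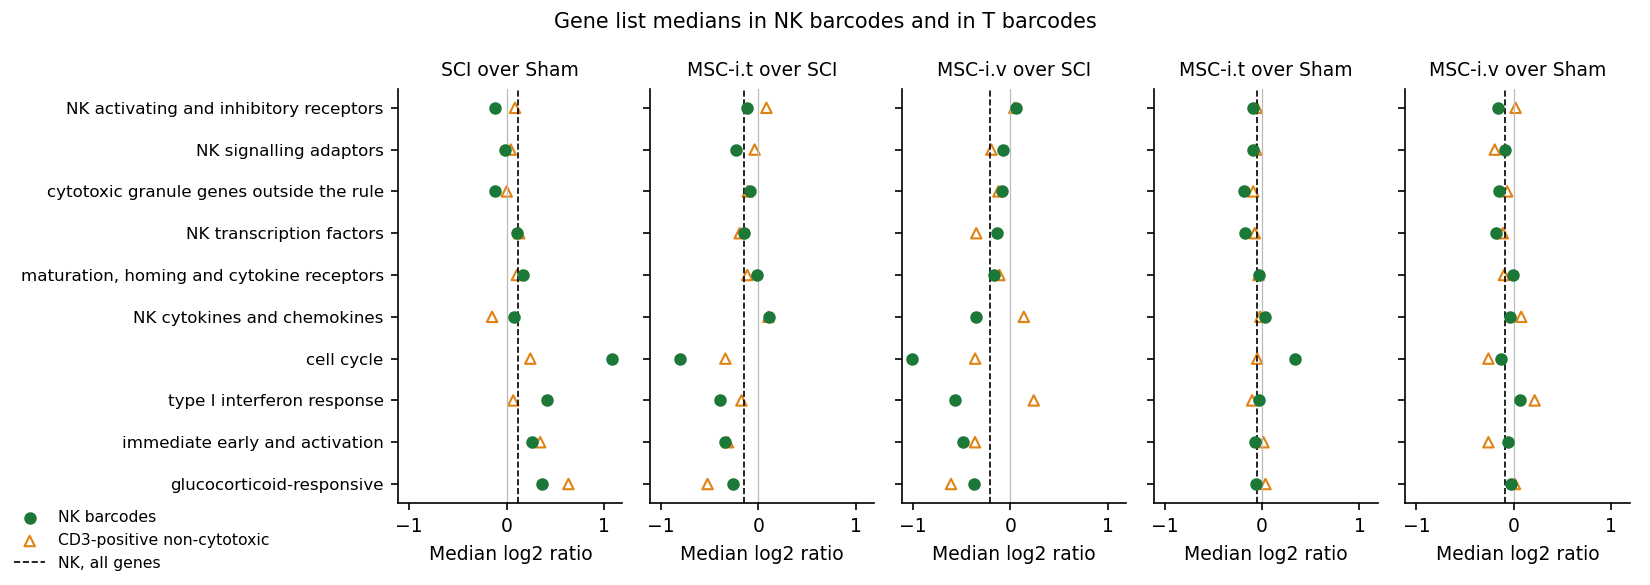
Median log2 ratio of the members of 10 gene lists in 5 comparisons of libraries, in NK barcodes (filled circles) and CD3-positive non-cytotoxic barcodes (open triangles), with the NK median over all genes as a dashed line. The cell cycle list has the highest NK median of SCI over Sham at 1.08 and the lowest of MSC-i.v over SCI at -1.01, with T barcode medians of 0.24 and -0.36; the SCI and Sham libraries are shared between panels.

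The cell cycle list had a median log2 ratio of 1.08 over 19 members, 17 of them above 0, against 0.24 in CD3-positive non-cytotoxic barcodes. Of 13 members with at least 30 UMIs, 10 were at least 2-fold higher in SCI, none was lower, and the median lay between 0.76 and 1.17 under all alternatives tried. Mcm2, a subunit of the replicative helicase, had 19, 55, 30 and 20 UMIs, or 19.0, 73.3, 35.9 and 20.8 CPM, a log2 ratio of 1.95 (1.18 to 2.79) against 0.13 in the T barcodes. Mcm5, another subunit, had 8, 40, 16 and 13 UMIs, a log2 ratio of 2.74 (1.62 to 4.05). Both genes were highest in SCI and next highest in MSC-i.t. Pcna, the clamp of the replicative polymerases, was at 78.8, 188, 80.3 and 62.5 CPM, a log2 ratio of 1.25 (0.85 to 1.67) against 0.03 in the T barcodes. Gmnn, the inhibitor of origin licensing, which is outside the list and named by its difference from T cells, was at 23.9, 87.9, 33.5 and 26.0 CPM, a log2 ratio of 1.88 (1.18 to 2.62) against -0.29. The mitotic members were less even. Mki67, the proliferation antigen, was at 61.8, 87.9, 39.5 and 43.7 CPM, a log2 ratio of 0.51 (-0.01 to 1.03), and Cenpf, a kinetochore protein, at 16.0, 18.6, 13.2 and 47.9 CPM, highest in MSC-i.v, where 24 of its 46 UMIs came from 1 barcode.

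**Figure D4:**
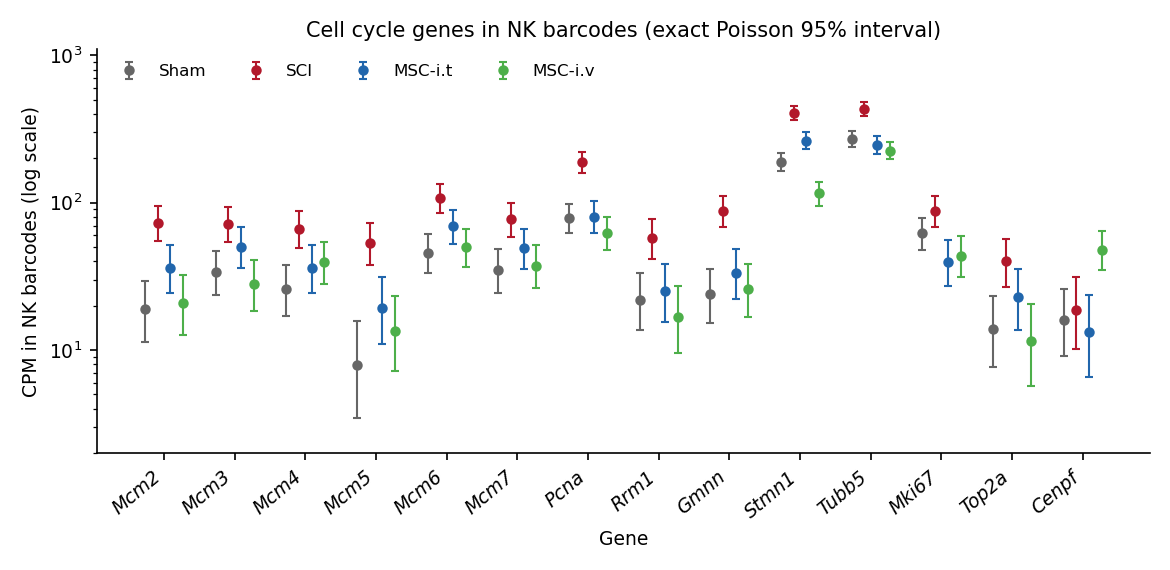
CPM of 14 cell cycle genes in NK barcodes on a log scale, 1 point per library with exact Poisson 95% intervals. Mcm2 to Mcm7, Pcna, Rrm1 and Gmnn are highest in SCI, for Pcna at 188 CPM against 62.5 to 80.3 CPM in the other libraries, and Cenpf is highest in MSC-i.v at 47.9 CPM.

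The promoters of the helicase genes are shown because these genes were higher together. Promoters were taken from RefSeq (GRCr8, 250 bases before to 50 after the annotated start) for 19 cell cycle members, and searched on both strands, overlaps counted, for the words TTTCCCGC, TTTCGCGC, TTTGCCGC and TTTGGCGC, the classical site of E2F factors, which control genes of DNA replication. A word was held by 2.14% of all 33469 promoters of that set, and of the 19 members 8 did (42.1%), among them all 5 helicase genes with a promoter there, Mcm2, Mcm3, Mcm5, Mcm6 and Mcm7, while Pcna and Rrm1 held none. A match is a description of these letters and not a measured binding site. Capitals mark the words in Mcm2 (chr4:122918045-122918344, minus strand), Mcm5 (chr19:13488563-13488862, plus strand) and Mcm7 (chr12:22163129-22163428, minus strand), all in GRCr8 and written along the gene's strand.
Mcm2: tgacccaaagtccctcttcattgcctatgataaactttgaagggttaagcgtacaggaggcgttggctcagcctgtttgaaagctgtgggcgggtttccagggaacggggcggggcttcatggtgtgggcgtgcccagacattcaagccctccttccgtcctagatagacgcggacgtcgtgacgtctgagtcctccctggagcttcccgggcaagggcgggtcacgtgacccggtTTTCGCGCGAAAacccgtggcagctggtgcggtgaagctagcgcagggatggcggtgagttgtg
Mcm5: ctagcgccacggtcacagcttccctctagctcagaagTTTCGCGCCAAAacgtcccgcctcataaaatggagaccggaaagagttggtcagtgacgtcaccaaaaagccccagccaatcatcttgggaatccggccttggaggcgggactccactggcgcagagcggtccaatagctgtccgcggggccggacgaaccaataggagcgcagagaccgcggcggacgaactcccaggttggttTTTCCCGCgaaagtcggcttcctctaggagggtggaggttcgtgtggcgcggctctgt
Mcm7: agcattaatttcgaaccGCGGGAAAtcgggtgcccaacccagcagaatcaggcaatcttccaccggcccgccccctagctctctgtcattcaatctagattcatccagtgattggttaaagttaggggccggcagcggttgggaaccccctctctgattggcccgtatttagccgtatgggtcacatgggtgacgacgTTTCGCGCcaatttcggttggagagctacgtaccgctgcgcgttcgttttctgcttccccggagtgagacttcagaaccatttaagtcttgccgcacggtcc
In Mcm2 a word and its reverse complement overlap in 1 palindromic run just before the start, and Mcm5 holds a run of 2 overlapping words far upstream and a single word close to the start.

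The replication RNA was concentrated in some of the barcodes. Over 8 genes (Mcm2 to Mcm7, Pcna and Rrm1, picked after their values were seen) NK barcodes held 695 CPM (637 to 758) in SCI, and less in the others, at 365 (326 to 409) in MSC-i.t, 269 (237 to 303) in MSC-i.v and 268 (237 to 302) in Sham. In SCI, 39 of 141 NK barcodes (27.7%) had at least 3 of these UMIs and held 446 of the 522 in the library. The other libraries had 27 of 162 (MSC-i.t, 16.7%), 21 of 218 (Sham, 9.63%) and 18 of 279 (MSC-i.v, 6.45%). With all UMIs the other classes had the same order of libraries. B barcodes were at 8.32%, 18.8%, 12.2% and 4.86% (Sham, SCI, MSC-i.t, MSC-i.v), and CD3-positive cytotoxic ones at 15.1%, 18.2%, 16.4% and 8.61%. CD3-positive non-cytotoxic ones were at 7.36%, 11.9%, 9.77% and 3.87%. Thinned to 2000 UMIs, the share was 3.92% (1.71 to 7.58), 16.4% (10.6 to 23.8), 5.84% (2.71 to 10.8) and 4.25% (2.14 to 7.47). The genes were picked for their values and each group has 1 library, so these intervals test no difference between groups. At that depth B barcodes gave 3.30%, 5.42%, 4.59% and 3.38%, also highest in SCI, and CD3-positive cytotoxic barcodes 1.35% to 1.60%. NK barcodes of Sham, MSC-i.t and MSC-i.v thus lay near the level of B barcodes.

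A separate sign of division, at least 2 UMIs of 10 G2 and M phase genes, was met by 5.50%, 12.1%, 8.02% and 4.66% of NK barcodes (12, 17, 13 and 13), and after thinning by 3.43%, 7.46%, 2.60% and 3.86%. The exact thinned intervals all overlapped. Thinned CD3-positive non-cytotoxic barcodes gave 0.419% to 0.596% and thinned B barcodes 0.255% to 1.57%. Of the NK barcodes with at least 3 replication UMIs, 5, 14, 6 and 4 also met this sign, while 7, 3, 7 and 9 barcodes met it with fewer. Without the barcodes that met it, the log2 ratio of SCI to Sham over the 8 replication genes was 0.97 (0.69 to 1.25), against 1.37 (1.16 to 1.59) over all NK barcodes. The 17 SCI barcodes that met it held 275 of the 522 replication UMIs, a spread between barcodes that these intervals leave out.

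**Figure D5:**
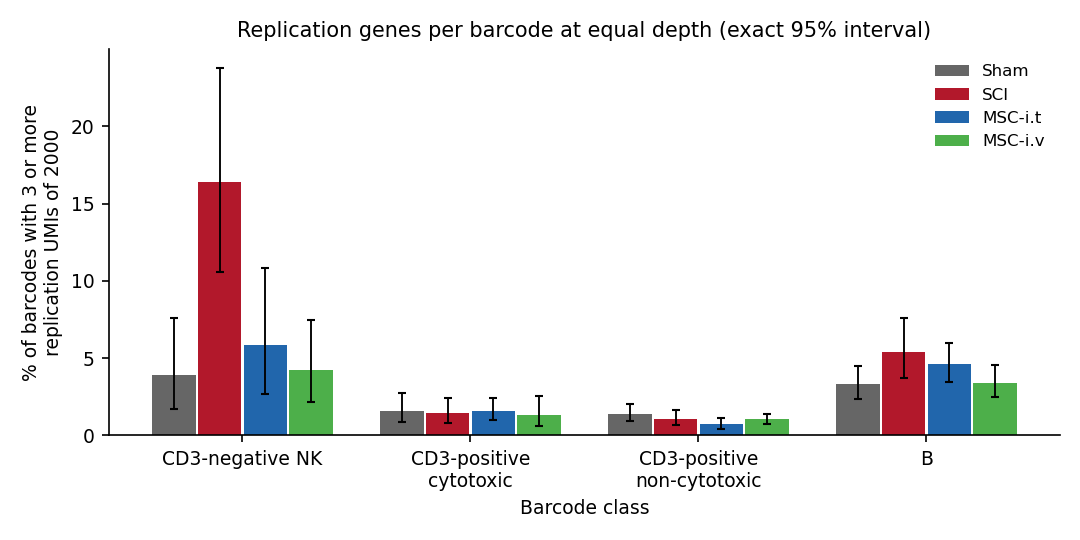
Percent of barcodes with at least 3 UMIs of 8 replication genes after thinning to 2000 UMIs, by class and library, with exact 95% intervals for counting error. SCI NK barcodes reach 16.4%, against 3.92% to 5.84% in the other NK bars and 0.713% to 5.42% in the other classes.

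Type I interferon genes had a median log2 ratio of 0.42 over 24 members, 21 above 0, against 0.07 in CD3-positive non-cytotoxic barcodes, and 2 of 16 members with at least 30 UMIs were at least 2-fold higher and 1 lower. Isg15, a ubiquitin-like interferon product, was at 54.9, 108, 44.3 and 65.6 CPM, a log2 ratio of 0.98 against -0.12 in the T barcodes. Isg20, an exonuclease against viral RNA, was at 35.9, 74.6, 37.1 and 59.3 CPM. Mx2, an antiviral GTPase, had 2, 32, 6 and 5 UMIs, and 8 of the 32 came from 1 barcode. These 3 genes were highest in SCI. Ifi27 went the other way, at 416, 163, 282 and 153 CPM, with log2 ratios of -1.36 in NK and -1.74 in CD3-positive non-cytotoxic barcodes. The interferon genes of the list thus did not all differ in 1 direction.

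Immediate early and glucocorticoid-responsive genes had ratios of like size in T barcodes. Jund, a member of the AP-1 factors, was at 102, 414, 99.5 and 104 CPM, with log2 ratios of 2.03 in NK and 2.0 in CD3-positive non-cytotoxic barcodes. Zfp36l2, which destabilises messenger RNA, was at 221, 650, 208 and 215 CPM (1.55 and 1.16), and Fkbp5, a chaperone induced by glucocorticoids, at 31.9, 67.9, 31.2 and 26.0 CPM (1.09 and 1.30). The list medians were 0.26 and 0.37 in NK barcodes and 0.34 and 0.63 in T barcodes, and turned to -0.20 and -0.24 once the T ratio of each gene was subtracted. The 6 highest ratios outside the lists, of Basp1, Dapk3, Cdv3, Taf10, Alyref and Purb, ran from 3.16 to 4.82 in NK barcodes and from 2.06 to 4.64 in T barcodes. Among the genes lowest in SCI, Alox15, a lipoxygenase found in reticulocytes, was at 69.8, 4.00, 143 and 58.3 CPM and had 50 of its 70 UMIs in Sham from 1 barcode, and Tubb2a, a beta tubulin that platelets also carry, 42 of 83. Platelet UMIs were present in 28.0% of Sham and 17.7% of SCI NK barcodes, and among barcodes without them the Tubb2a ratio was 1.74 in place of -2.64. Tsc22d1, at 51.9, 9.32, 15.6 and 21.9 CPM, had 21 of its 52 UMIs from 1 Sham barcode and a log2 ratio of -2.48 (-3.86 to -1.33) against -0.12 in T barcodes.

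MSC-i.t and MSC-i.v against SCI ask whether treated and untreated injured rats differ. Both comparisons share the SCI library with each other and with the comparison above, so they are not independent, and their values are given side by side. In MSC-i.t, 8.04% of 4824 genes differed from SCI at least 2-fold, 1.2% higher and 6.84% lower, and in MSC-i.v 7.97% of 4907, 0.917% higher and 7.05% lower. The medians over all genes were -0.15 and -0.21. Of the differing genes 14.9% were higher in MSC-i.t, 27.5% after centring on that median and 48.3% after subtracting the ratio in T barcodes. For MSC-i.v they were 11.5%, 26.0% and 35.3%, and 21.7% under the rule on thinned counts.

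Identity genes again differed little. Receptors had medians of -0.12 and 0.06, signalling genes -0.23 and -0.08, granule genes -0.09 and -0.09, transcription factors -0.15 and -0.14, and homing genes -0.01 and -0.16. At 2-fold, 0 of these members were higher in either comparison; Fcgr3a and 1 of the Klra5 entries were lower in MSC-i.t and none was lower in MSC-i.v. Fcgr3a, the Fc receptor CD16 of antibody-dependent killing, was at 24.9, 48.0, 24.0 and 35.4 CPM. S1pr5 lay just within 2-fold in MSC-i.t, at 40.7 CPM against 81.3 CPM in SCI and 57.8 CPM in Sham. Cxcr4, the bone marrow retention receptor, was at 43.9, 50.6, 85.1 and 78.1 CPM, higher in both MSC libraries than in SCI or Sham, with log2 ratios to SCI of 0.75 and 0.63 where CD3-positive non-cytotoxic barcodes had -0.43 and -0.11.

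Cell cycle genes were lower in both MSC libraries than in SCI. The medians were -0.80 and -1.01 over 19 members each, against -0.34 and -0.36 in T barcodes, and lay between -0.81 and -0.47 and between -1.15 and -0.33 under the alternatives tried. In MSC-i.t, 5 of 12 members with at least 30 UMIs were at least 2-fold lower and none was higher. In MSC-i.v, 10 of 13 were lower and Cenpf was higher. The 8 replication genes together had log2 ratios of -0.93 (-1.14 to -0.72) and -1.37 (-1.59 to -1.15), which were -0.54 and -0.67 without the barcodes that met the sign of division. Stmn1, a microtubule regulator of dividing cells, was at 190, 408, 264 and 116 CPM, and lower in MSC-i.v than in any other library. Interferon genes had medians of -0.40 and -0.56, against -0.17 and 0.24 in T barcodes. Bst2, the antiviral tether tetherin, was at 130, 149, 126 and 46.8 CPM, low in MSC-i.v alone, a log2 ratio of -1.67 to SCI where T barcodes had 0.01. Its UMIs were spread over 41 to 82 barcodes per library.

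MSC-i.t and MSC-i.v against Sham show where the treated libraries differ from the sham library. Fewer genes passed 2-fold, 2.53% of 5011 in MSC-i.t (0.878% higher, 1.66% lower) and 2.3% of 5122 in MSC-i.v (0.625% higher, 1.68% lower). All-gene medians were -0.05 and -0.09. Of the differing genes, 34.6% and 27.1% were higher. These shares became 50% and 43.5% after the T barcode ratio was subtracted. The MSC-i.v share was 43.5% after centring and 42.5% under the rule on thinned counts, and the MSC-i.t share 50% among genes with at least 100 UMIs. The 8 replication genes had log2 ratios of 0.45 (0.20 to 0.69) and 0.0015 (-0.25 to 0.25), and the cell cycle medians were 0.33 and -0.13, with 0 of 11 members past 2-fold in MSC-i.t and Cenpf of 12 in MSC-i.v.

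Some genes set Sham or a single treated library apart. Lmo4, a LIM-domain regulator of transcription, was at 114, 54.6, 40.7 and 35.4 CPM, but 41 of its 114 UMIs in Sham came from 1 barcode. Il18, the cytokine that primes interferon gamma release, was at 81.8, 140, 117 and 169 CPM, lowest in Sham and highest in MSC-i.v, with a log2 ratio to Sham of 1.04 (0.65 to 1.45) in MSC-i.v and its 162 UMIs there spread over 103 barcodes. Hsph1, a heat shock chaperone, was at 19.9, 42.6, 53.9 and 44.8 CPM, lowest in Sham. Trex1, a DNA exonuclease that restrains interferon signalling, was at 46.9, 18.6, 16.8 and 32.3 CPM. Clec2d2, a lectin-like gene of the family of NKR-P1 ligands, was at 47.9, 32.0, 28.8 and 16.7 CPM, lowest in MSC-i.v. The other 4 genes had at most 28.6% of a library's UMIs in 1 barcode.

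The treated libraries set against each other differed at least 2-fold in 2.19% of 4838 genes, 1.16% higher and 1.03% lower in MSC-i.t. The routes came with different doses, so route and dose cannot be told apart. Of these genes 52.8% were higher in MSC-i.t, or 41.8% after centring on the all-gene median of 0.05. Bst2 was higher in MSC-i.t, a log2 ratio of 1.43 (0.91 to 1.96) where T barcodes had 0.53. Gpr183, an oxysterol receptor that guides lymphocytes, was at 37.9, 29.3, 49.1 and 14.6 CPM, lowest in MSC-i.v. Tmem160, a mitochondrial membrane protein, was at 143, 177, 51.5 and 162 CPM, low in MSC-i.t alone, with log2 ratios of MSC-i.t to MSC-i.v of -1.66 in NK and -1.11 in T barcodes. The 8 replication genes had a log2 ratio of 0.44 (0.20 to 0.69), and Stmn1 was more than 2-fold higher in MSC-i.t, at 264 against 116 CPM.

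RNA of red cells moved with the library in NK barcodes. Lgals5, a galectin of reticulocytes, had 43, 5, 108 and 74 UMIs, of which 36, 3, 103 and 66 came from the 2, 1, 4 and 8 barcodes with at least 5% hemoglobin. Car2, the carbonic anhydrase of red cells, had 44, 5, 74 and 51 UMIs, of which 28, 3, 68 and 38 came from the same barcodes. Without them the MSC-i.t ratio to Sham of Lgals5 was -0.12 on the log2 scale, against 1.59 with them. Lyz2, a lysozyme of myeloid cells, was detected in 34.3%, 14.9%, 10.4% and 28.2% of thinned NK barcodes and in 45.6%, 19.2%, 21.7% and 34.7% of thinned B barcodes. It was thus not particular to NK barcodes, no NK difference is read from it, and the source of its UMIs was not tested. Scrublet called 2, 0, 3 and 8 NK barcodes doublets.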

How the data were processed

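Single-cell RNA-seq libraries of rat blood were analysed, 1 per group, with 63133881 to 91124523 UMIs each. The deposited values are raw UMI counts per gene and barcode, which the authors made with Cell Ranger 4, per the file headers. The submitters' processing notes name mRatBN7.2 as the build. The matrices list all barcodes, and cell calling was not given in the sources used here. A bulk RNA protocol is given in the labels; it does not describe how barcodes were made.

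Barcodes were filtered and classed by the UMI rules in the report. The members and gene lists were chosen with earlier results of these data known. CD3-positive cytotoxic barcodes met the NK rule but for at least 2 CD3 UMIs; CD3-positive non-cytotoxic (T) barcodes had at least 2 CD3 UMIs and no cytotoxic UMI; B barcodes had at least 2 UMIs of Cd79b and Ms4a1 and none of the CD3 or cytotoxic genes. UMIs were summed per class and library and scaled to 1000000. Ratios between libraries carry exact conditional binomial intervals, levels exact Poisson intervals and shares Clopper-Pearson intervals (95%, counting error only). A gene was counted as differing past 2-fold with at least 30 UMIs in the pair, and list medians used members with at least 10. NK and CD3-positive cytotoxic sums were fitted with edgeR 4.0.16 (quasi-likelihood, TMM, filterByExpr, library as a block, Benjamini-Hochberg) under R 4.3.3; each class pair comes from 1 library, so pairing is by library. On simulated counts of 7348 genes this fit called 96% of genes raised 2-fold, 76% of genes lowered 2-fold, 100% of those changed 4-fold either way and 0.056% of the 7148 unchanged ones.

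Detection was compared after thinning to 2000 UMIs; 14, 7, 8 and 20 shallower NK barcodes were left out. Scrublet (scanpy 1.11.5) called 3.78%, 2.00%, 2.75% and 6.87% of kept barcodes doublets, and these were kept in the main values. Named genes were list members with the highest and lowest ratios or levels, the 6 highest and 6 lowest ratios per pair, the 4 highest and 4 lowest differences from T barcodes, and the 10 largest class differences in each direction. The replication gene set, members named because 5 or fewer passed 2-fold, and genes given for a low ratio were chosen after their values were seen. Alternatives were other gene minimums, centring, totals, thinning of all barcodes with the rule applied again, stricter barcode rules, removal of doublets, DESeq2 1.42.0 and leaving out each library. Gene symbols of the lists without a match in the files are not analysed here.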

Additional observations from a re-analysis of the deposited data

How the results depend on the processing

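Of 194 alternatives of the main results, 156 stayed within a set limit of the main value and 38 did not. The limit was a fold limit for counts of genes and the counting interval for shares and log2 ratios. For the percent of calls that were higher it was a difference in percent points. The fold limit is wide, and 1868 genes against 2776 in the class contrast lay within it. Single genes that differed at least 2-fold between libraries, or were called in the class contrast, changed sign in 21 alternatives, given below; sign changes of smaller values are not counted. The causes were not tested unless fewer genes, barcodes or UMIs make them plain. NK shares moved to 2.74% in Sham and 2.25% in MSC-i.v among lymphocytes, to 1.74% in MSC-i.v and 1.34% in MSC-i.t with no CD3 UMI, to 1.73%, 1.59%, 1.11% and 1.60% without platelet UMIs, and to 2.74%, 1.89% and 2.31% (Sham, MSC-i.t, MSC-i.v) under the rule on thinned counts. Cycling shares under that rule were 5.37% in SCI and 3.31% in MSC-i.t. In the order SCI to Sham, MSC-i.t to SCI, MSC-i.v to SCI, MSC-i.t to Sham, MSC-i.v to Sham, MSC-i.t to MSC-i.v, genes past 2-fold numbered 394, 388, 391, 127, 118 and 106; they were 99, 92, 87, 20, 16 and 11 at a minimum of 100 UMIs and 1050, 1031, 1054, 582, 616 and 559 at 10. The rule on thinned counts gave 184, 173, 189 and 79 for the first 4, and subtracting the T ratio 187, 149 and 190 for the first 3. The class contrast gave 2776 genes, and 808 under the rule on thinned counts. It gave 1868 with DESeq2, 3254 unfiltered, 2313 with no replicate block and 2344 to 2628 leaving out 1 library. Without barcodes of at least 2 G2/M UMIs, replication log2 ratios were 0.97, -0.54, -0.67, 0.44, 0.30 and 0.13.

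With the T ratio subtracted, SCI to Sham reversed for Cdv3 (-0.47), Dapk3 (-0.31), Purb (-0.34) and Taf10 (-0.24), MSC-i.t to SCI for Purb (0.43) and MSC-i.v to SCI for Dapk3 (0.74). Without barcodes of at least 5% hemoglobin, Lgals5 (-0.12) and Tmcc2 (-0.33) reversed for MSC-i.t to Sham and Alox15 (-3.28) for MSC-i.t to MSC-i.v. Alox15 also reversed without doublets (-0.66) or platelet UMIs (-3.55), and Tubb2a without platelet UMIs (1.74 for SCI and 2.73 for MSC-i.t to Sham). Under the rule on thinned counts, whose members differ from the main ones, Tmcc2 (-0.50) and Lyz2 (1.62) reversed for MSC-i.t to Sham. Lyz2 (1.95) also reversed there for MSC-i.t to MSC-i.v, and Cxcr4 (0.086) in the class contrast. Without the 2 basophil-gene barcodes, an alternative chosen after seeing the data, Mcpt1l4 and Mcpt8 reversed to 0.24 and 0.33 for SCI to Sham and to 0.14 and 0.16 for MSC-i.v to Sham.

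No paired analysis was possible because each group has 1 library; this holds for the ratios between libraries, while the class contrast is paired by library. In simulated SCI to Sham counts, drawn with UMIs independent of each other, 1.33% of unchanged genes passed the 2-fold limit by counting error alone. The simulation leaves out the spread from barcode to barcode, so this share is not the one to set against the observed share.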
